A study of Homo sapiens with 5 samples.

Results

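The genes described here are the nuclear-encoded subunits of the respiratory chain, the machinery of the inner mitochondrial membrane that passes electrons from food molecules to oxygen and makes ATP. They were taken by symbol: every row of the deposited table without a hyphen whose symbol starts with NDUFA, NDUFB, NDUFC, NDUFS, NDUFV, UQCR, COX4, COX5, COX6, COX7, COX8 or ATP5, together with SDHA, SDHB, SDHC, SDHD and CYCS. NDUFAF assembly factors and pseudogene names were left out, and a level of at least 5 CPM (counts scaled to library size, here with TMM factors) was required in at least 1 library. This gave 80 genes of 26475 rows. Of them 37 encode subunits of complex I, 4 of complex II, 8 of complex III, 12 of complex IV and 15 of complex V. CYCS encodes cytochrome c, and 3 symbols that the prefixes also catch (ATP5S, ATP5SL and COX7A2L) encode no subunit. The rule used an expression minimum and no difference between conditions. Just inside the minimum lay NDUFC1 and ATP5S, with highest levels of 10.3 and 10.9 CPM, and 8 further symbols fell below it, the nearest being UQCRHL at 3.08 CPM.

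The data are 5 RNA sequencing libraries, 1 per condition, from MDA-MB-231, an established human breast cancer cell line without estrogen receptor expression and with a mesenchymal character. Cells were kept at 20% O2 for 1 day, at 1% O2 for 1 day, at 20% O2 for 10 days or at 1% O2 for 10 days. The last culture had 10 days at 1% O2 and then 10 days at 20% O2, and is called reoxygenated here. All 5 share the line, and no allele, drug or other agent is named in the labels. Nothing in the labels says whether separate cultures were used, so differences between these libraries may be technical. The only p-values given here come from a fit of oxygen and day. They set the oxygen difference against how far it changed between the days, not against a spread between like libraries.

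Complex I takes electrons from NADH and complex II takes them from succinate, and both hand them to ubiquinone. Complex III passes them to cytochrome c, a small soluble carrier, and complex IV (cytochrome c oxidase) passes them on to oxygen. Complexes I, III and IV pump protons, and complex V (ATP synthase) lets the protons flow back to make ATP. Cells at low oxygen are known to lean on glycolysis, and the hypoxia-inducible factors are known to swap subunits of complex IV and to raise enzymes and receptors that divert pyruvate or clear mitochondria. Of 13 symbols for subunits that the mitochondrial genome encodes, 0 were found in the deposited table, so those subunits could not be analysed here.

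Library totals ran from 7719807 to 12544941 counts, so that 3 counts, the limit that an absence of counts allows, stand for 0.245 to 0.377 CPM. Members took 0.713% of all counts at 20% O2 day 1, 0.634% at 1% O2 day 1, 0.641% at 20% O2 day 10, 0.529% at 1% O2 day 10 and 0.630% in the reoxygenated library. VIM, CD44, AXL and FN1, which mark mesenchymal breast cancer lines, summed to 3028 to 4375 CPM, lowest at 1% O2 day 10. They did not move together. Their log2 differences between 1% and 20% O2 at day 10 ran from -1.08 to 1.96, with 3 below 0 and 1 above. Their part in the results was not tested. Of 6 epithelial and luminal markers, 4 (KRT8, KRT18, EPCAM and GATA3) passed the expression minimum, and the list summed to 632 to 931 CPM, lowest at 1% O2 day 10. ESR1 (the estrogen receptor) and the epithelial cadherin gene CDH1 reached at most 0.193 and 1.06 CPM. EPCAM, an adhesion protein of epithelia, read 15.1 CPM at 20% O2 day 10 and 29.1 CPM at 1% O2 day 10, and KRT8, a keratin, 463 and 254 CPM; the part of these markers in the results was not tested. Of the 5 markers of other cells, ALB, PTPRC, PECAM1 and CD14 stayed below 5 CPM in every library. COL1A1, a collagen gene of fibroblasts, lay between 4.43 and 14.5 CPM, highest at 1% O2 day 10, and its part in the results was not tested. The exposure itself was visible in a list of 10 targets of the hypoxia-inducible factors. Of them 7 rose with low oxygen in edgeR's quasi-likelihood test (0.899% of all genes rose). That list was chosen with earlier results of these data known, so it is no independent control. CA9, a carbonic anhydrase, read 5.11 and 8.49 CPM at 20% O2 and 51.9 and 68.7 CPM at 1% O2 on days 1 and 10 (adjusted p = 2.86e-07), and 3.65 CPM after reoxygenation.

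Promoter sequence is shown for the 3 members that were lowest at 1% O2 day 10 against 20% O2 day 10 and for the 1 that was highest, because the results below turn on them. The stretches are from RefSeq (build GRCh38.p14), read 5′ to 3′ on the gene's own strand, and begin 250 bases before the annotated start of the gene; they lie outside its annotated exons. CYCS lies at chr7:25125362-25125510 on the minus strand, ATP5G1 (now ATP5MC1) at chr17:48892537-48892764 on the plus strand, NDUFS6 at chr5:1801157-1801399 on the plus strand and COX5B at chr2:97645812-97646039 on the plus strand. Capitals mark GCATGCGC, the inner part of the site of nuclear respiratory factor NRF1, and CCGGAAG, a core read by ETS factors such as GABPA, each on either strand.
CYCS: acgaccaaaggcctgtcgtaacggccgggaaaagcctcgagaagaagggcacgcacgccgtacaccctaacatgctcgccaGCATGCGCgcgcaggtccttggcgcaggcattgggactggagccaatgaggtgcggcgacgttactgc
ATP5G1: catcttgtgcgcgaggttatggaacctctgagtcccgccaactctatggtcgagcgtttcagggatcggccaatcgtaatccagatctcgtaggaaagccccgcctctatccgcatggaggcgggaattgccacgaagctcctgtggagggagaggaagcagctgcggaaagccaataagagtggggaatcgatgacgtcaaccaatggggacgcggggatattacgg
NDUFS6: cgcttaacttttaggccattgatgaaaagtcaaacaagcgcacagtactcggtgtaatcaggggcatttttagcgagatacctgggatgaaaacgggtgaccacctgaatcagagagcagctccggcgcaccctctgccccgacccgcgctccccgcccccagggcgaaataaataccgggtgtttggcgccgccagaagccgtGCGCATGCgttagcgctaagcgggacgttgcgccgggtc
COX5B: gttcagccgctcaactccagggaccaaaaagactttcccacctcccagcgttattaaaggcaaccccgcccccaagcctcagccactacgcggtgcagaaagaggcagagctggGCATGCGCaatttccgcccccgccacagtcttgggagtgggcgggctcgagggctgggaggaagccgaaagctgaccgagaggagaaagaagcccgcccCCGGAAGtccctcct
GCATGCGC stands once in the CYCS, NDUFS6 and COX5B stretches, on the reverse strand in NDUFS6, and CCGGAAG once in COX5B. Neither is in the ATP5G1 stretch. The gene with the highest difference and a pair of those with the lowest thus carry the same 8 letters.

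Across the 5 libraries the members were highest at 20% O2 day 1 and lowest at 1% O2 day 10. The highest of the 5 levels was at 20% O2 day 1 for 61 of 80 members (22.8% of all 11641 genes at the same minimum), and the lowest was at 1% O2 day 10 for 59 (42.5% of all genes). When levels were scaled to library totals alone, both counts were 48. COX5B and COX6A1 were the 2 members with their highest level at 1% O2 day 10 (9 members with library totals), where 32.4% of all genes had theirs. The summed level of all members was 7393 CPM at 20% O2 day 1, 6576 at 1% O2 day 1, 6560 at 20% O2 day 10, 4964 at 1% O2 day 10 and 6122 in the reoxygenated library. In bulk RNA, fewer cells that express a gene and less RNA per cell cannot be told apart. CPM is not divided by transcript length, so levels are compared here between libraries and not between genes.

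**Figure D1:**
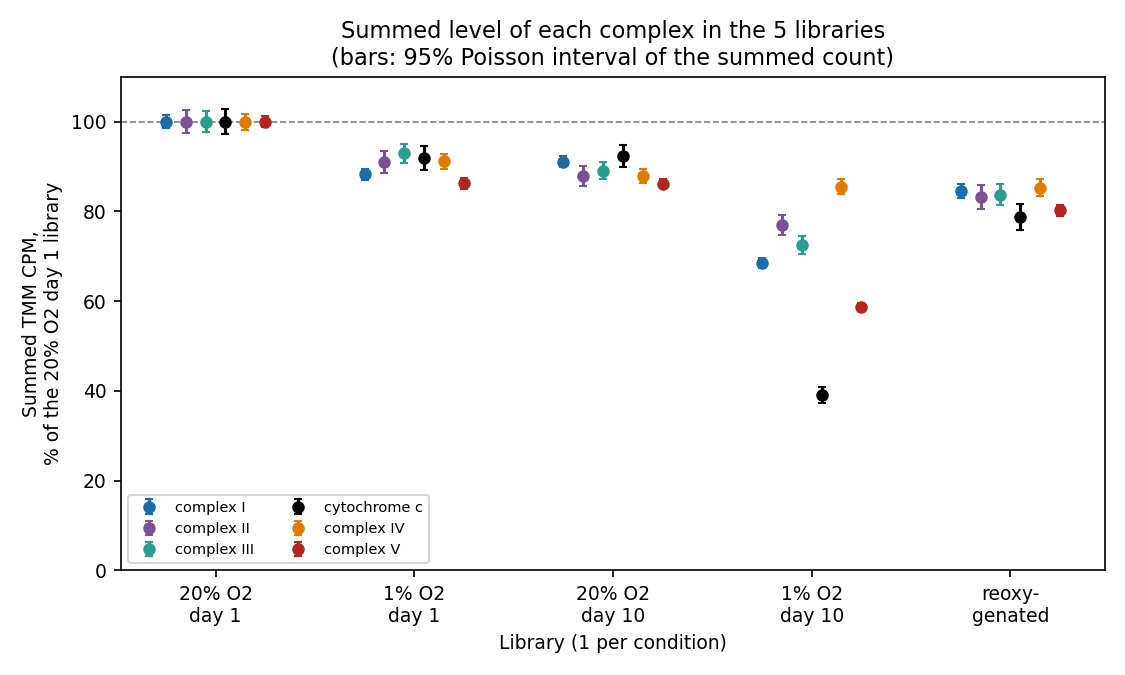
Summed TMM CPM of the members of each complex (points) in each library, as a percentage of the 20% O2 day 1 library, with 95% Poisson intervals of the summed count, 1 library per condition. At 1% O2 day 10 cytochrome c stands at 39.1%, complex V at 58.7% and complex IV at 85.5%; in the other 4 libraries the complexes lie between 78.7% and 100%.

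The comparison at day 10 asks how the chain's transcripts differ after long hypoxia. Of 80 members, 68 were lower at 1% O2 day 10 than at 20% O2 day 10 (54.1% of all genes were; 59 members with library totals), and the median log2 difference was -0.35 against -0.07 over all genes. Members past the size rule lay on 1 side only. By a size rule of log2 0.5 (1.41-fold), 25 members were lower and 0 higher, beside 25.7% and 21.6% of all genes. The number of members lower by that much is thus close to the background, and the absence of members higher by that much is not. Past log2 1 lay 3 members, all lower (CYCS, ATP5G1 and NDUFS6), against 7.43% of all genes lower and 9.84% higher. The exact 95% interval of the count ratio, which covers counting error only, lay below 0 for 53 members and above 0 for 3 (41.9% and 32.9% of all genes), or for 43 and 6 with library totals. With 1 library per condition this comparison has no test. With library totals in place of TMM scaling the median was -0.23 for members and 0.06 for all genes, 12 members were lower past log2 0.5 beside 19.6% of all genes, a share of members below the background, and 57.7% of all genes past that size were higher in place of 45.7%; relative to all genes the members' median was -0.28 with TMM and -0.29 with library totals. Among genes that reached 50 CPM it was -0.20 (51 members at -0.43, all such genes at -0.23). Of those 51 members 47 were below 0, 20 were lower by log2 0.5 or more and 0 higher. Of all 5589 such genes 64.0% were below 0, 32.2% were lower by that much and 799 genes were higher.

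**Figure D2:**
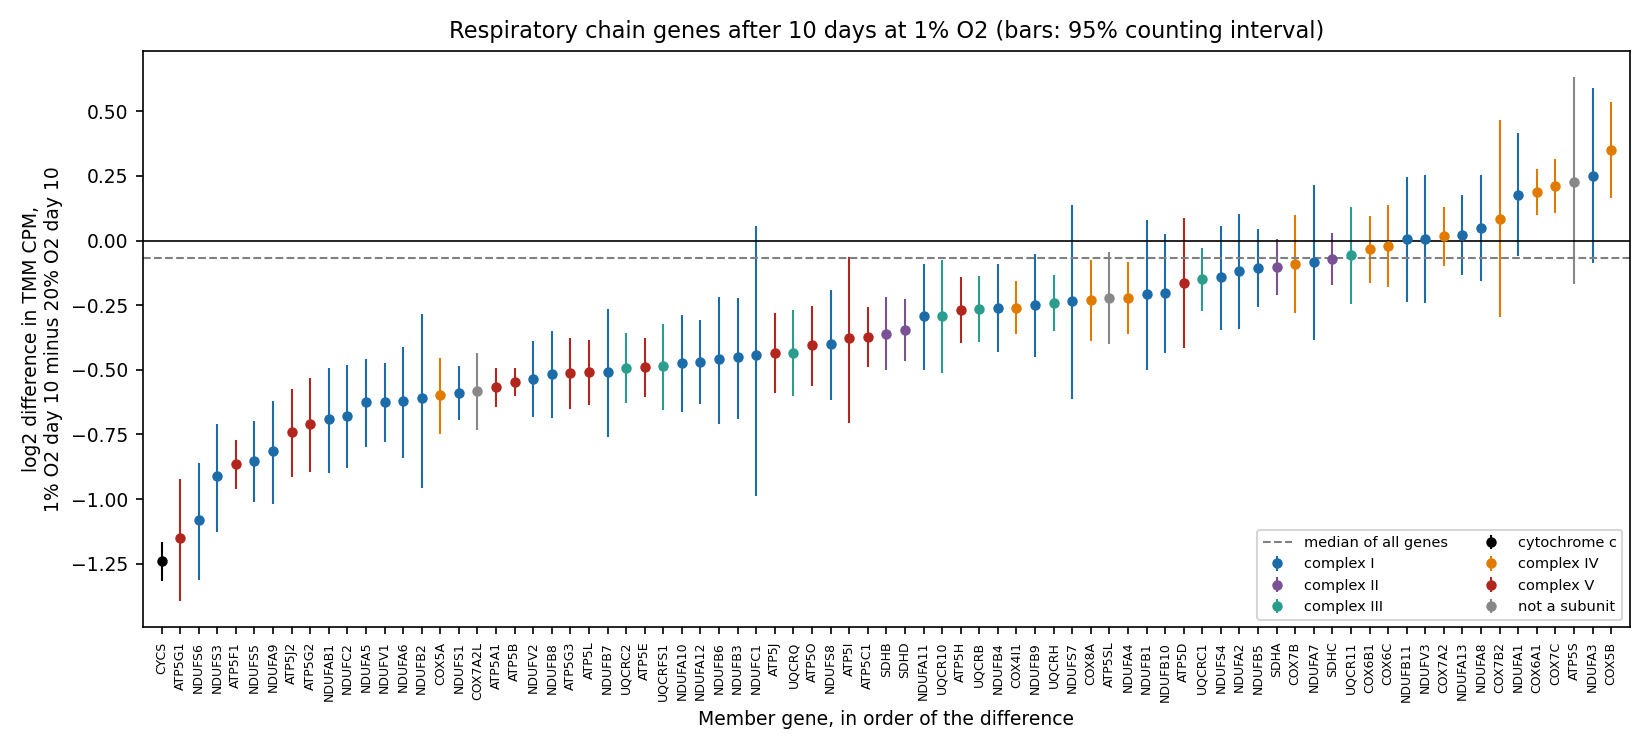
Log2 difference in TMM CPM between the 1% O2 and the 20% O2 library of day 10 for the members (1 is not shown), in order, coloured by complex, with 95% counting intervals; the dashed line is the median of all genes (-0.07). The members run from -1.24 (CYCS) to 0.35 (COX5B), complex V lies wholly below 0, and complex IV holds the 3 members whose interval is above 0 (6 members with library totals, 4 of them in complex IV).

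The medians of the complexes lay apart at day 10. The median log2 difference was -0.44 for complex I, -0.22 for complex II, -0.28 for complex III, -0.03 for complex IV and -0.51 for complex V. The 1% O2 level summed over each complex was 75.2%, 87.5%, 81.4%, 97.4% and 68.1% of the 20% O2 level in the same order, and 42.3% for cytochrome c. Complex IV had the highest median under each of the scalings, minima and row choices tried, and complex V the lowest, save with a minimum of 50 CPM, where complex I was lowest. With library totals the median of complex IV was 0.10 and its summed level 106.3% of the 20% O2 level, so its side of the control depends on the scaling. These are descriptions of 1 pair of libraries, and the differences between complexes were not tested. Over all members the count lower by log2 0.5 or more fell from 25 with TMM factors to 12 with library totals. The shares of all genes were 25.7% and 19.6%. The counts by that size given per complex below are with TMM factors.

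Cytochrome c had the lowest difference of all members. CYCS, whose product also triggers caspase activation once it leaves the mitochondrion, read 484 CPM at 20% O2 day 1, 445 at 1% O2 day 1, 447 at 20% O2 day 10, 189 at 1% O2 day 10 and 381 in the reoxygenated library. The 1% O2 day 10 library alone was far below the others, and the other 4 lay within a range of 381 to 484 CPM. The log2 difference at day 10 was -1.24 (95% counting interval -1.32 to -1.17), and that at day 1 was -0.12. CYC1, the heme-bearing partner of cytochrome c in complex III, lies outside the member rule and read 112 CPM at 20% O2 day 10 and 76.3 CPM at 1% O2 day 10.

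In complex V all 15 members were lower at 1% O2 day 10 than at 20% O2 day 10, 8 of them by log2 0.5 or more. Of all genes 54.1% were lower and 25.7% lower by that much. All 15 had their lowest level of the 5 libraries at 1% O2 day 10 (42.5% of all genes). With library totals 13 did, and all 15 were again lower than the control. The proton-driven c ring is built from identical mature proteins made by 3 genes. ATP5G1 read 49.5, 41.4, 44.5, 19.9 and 44.3 CPM in the order 20% O2 day 1, 1% O2 day 1, 20% O2 day 10, 1% O2 day 10 and reoxygenated, an order kept in the lists of 5 levels below. It was thus at less than 50% of any other library at 1% O2 day 10 and close to its 20% O2 day 10 level after reoxygenation, with a log2 difference of -1.15 at day 10 (interval -1.39 to -0.92). ATP5G2 read 75.7, 58.2, 59.7, 36.4 and 58.9 CPM, and ATP5G3 104.8, 94.1, 93.8, 65.7 and 88.8 CPM. All 3 c ring genes were lowest at 1% O2 day 10, with log2 differences of -0.71 and -0.51 for ATP5G2 and ATP5G3. The c ring as a whole stood at 61.7% of its 20% O2 day 10 level, the catalytic F1 head at 69.8% and the stalk and other membrane subunits at 66.8%.

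Within the F1 head, ATP5B, the beta subunit that carries the catalytic sites, read 698, 601, 593, 405 and 515 CPM, and ATP5A1, the alpha subunit, 411, 327, 327, 220.5 and 342 CPM. Both were lowest at 1% O2 day 10, where the log2 differences were -0.55 and -0.57. ATP5C1, the gamma subunit of the rotor, differed by -0.37, ATP5E (epsilon) by -0.49 and ATP5D (delta) by -0.16, the last with an interval that holds 0 (-0.42 to 0.09). In the stalk, ATP5F1, the b subunit, read 252, 216, 233, 128 and 205 CPM and differed by -0.87. ATP5J2, the membrane subunit f, differed by -0.74, or by -0.60 when the joined row ATP5J2-PTCD1 was added. That joined row held 44 counts at 1% O2 day 10 and 0 in the other 4 libraries. At the other end of the stalk subunits, ATP5H (subunit d) differed by -0.27 and ATP5I (subunit e) by -0.38.

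In complex I, 31 of 37 members were lower at 1% O2 day 10 (28 with library totals), beside 54.1% of all genes. By log2 0.5 or more 14 were lower and 0 higher, beside 25.7% and 21.6% of all genes. NDUFS6, an accessory subunit of the matrix arm, read 49.997, 49.3, 46.4, 21.9 and 37.7 CPM. Its 1% O2 day 10 level was lowest, its 1% O2 day 1 level was not apart from the control of that day, and the log2 difference at day 10 was -1.08 (interval -1.31 to -0.86). NDUFS3, a core subunit near the ubiquinone site, read 51.3, 42.0, 49.6, 26.3 and 41.5 CPM, and NDUFS5, an accessory subunit facing the intermembrane space, 84.5, 79.99, 84.8, 46.9 and 74.2 CPM. Both were lowest at 1% O2 day 10, by -0.91 and -0.85. NDUFA9, an accessory subunit that holds a nucleotide near the ubiquinone site, read 74.8, 56.3, 51.6, 29.2 and 57.0 CPM. It was already lower at 1% O2 on day 1 (-0.41) and also lower with time at 20% O2 (-0.53). NDUFAB1, the acyl carrier protein of mitochondria, differed by -0.69 at day 10.

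All 7 catalytic core genes of complex I, which carry the flavin and the iron-sulfur clusters, were lower at day 10, with a median of -0.53. By log2 0.5 or more 4 of them were lower, beside 25.7% of all genes (54.1% lay below 0). NDUFV1, which binds NADH and the flavin, read 80.6, 68.1, 81.7, 52.9 and 78.8 CPM, a log2 difference of -0.62. NDUFS1, the largest iron-sulfur subunit, read 143.1, 132.5, 167.7, 111.3 and 143.0 CPM, a difference of -0.59, and NDUFV2 differed by -0.53. These 3 form the arm that takes electrons from NADH, and each was lowest at 1% O2 day 10. NDUFS8 and NDUFS7, which hold the last clusters before ubiquinone, differed by -0.40 and -0.23, the latter with an interval that holds 0.

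The 30 accessory genes of complex I had a median of -0.37 and ranged most widely. NDUFC2 differed by -0.68, and by -0.82 when the joined row NDUFC2-KCTD14 was added, whose 900, 851, 873, 393 and 428 counts may trade reads with it. The 3 highest members of the complex were NDUFA3 (0.25), NDUFA1 (0.18) and NDUFA8 (0.05), all with intervals that hold 0. NDUFA3 read 14.7, 14.6, 12.1, 14.4 and 11.4 CPM, NDUFA1 30.2, 26.7, 24.3, 27.5 and 25.04 CPM. For these genes of the membrane arm a difference was not detectable at this depth with TMM factors, while with library totals the intervals of NDUFA3 and NDUFA1 lay above 0. NDUFC1, the member nearest to the expression minimum, differed by -0.44 with an interval of -0.99 to 0.06.

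All 4 genes of complex II, which is also an enzyme of the citric acid cycle, were lower at 1% O2 on both days, but 2 of them (SDHA and SDHC) lay above 0 at day 10 with library totals. No gene of the complex was lower by log2 0.5 or more, while 25.7% of all genes were at day 10. Of all genes 54.1% lay below 0 at day 10 and 50.3% at day 1. SDHB, the iron-sulfur subunit, read 98.2, 84.3, 84.2, 65.6 and 81.8 CPM and SDHD, a membrane anchor, 145.9, 123.5, 117.9, 92.8 and 102.7 CPM. Their log2 differences at day 10 were -0.36 and -0.34, with intervals below 0. SDHA, the flavoprotein that oxidises succinate, read 147, 139, 129, 120.5 and 123.5 CPM, and SDHC, the other anchor, 151, 146, 145, 138 and 143 CPM. Those 2 differed by -0.10 and -0.07, with intervals that hold 0, so that the 4 genes fall into a pair that was lower and a pair for which counting error covers the difference.

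In complex III all 8 members were lower at 1% O2 day 10 than at 20% O2 day 10 (54.1% of all genes). The interval lay below 0 for 7 (41.9% of all genes), and 0 were lower by log2 0.5 or more (25.7%). With library totals 7 were lower, UQCR11 being the exception at 0.07. UQCRC2, a core protein of the matrix side, read 118, 96.6, 98.2, 69.8 and 105.4 CPM, and UQCRFS1, the Rieske iron-sulfur protein that moves electrons toward cytochrome c, 90.5, 77.4, 63.7, 45.4 and 69.6 CPM. Both differed by -0.49 at day 10. UQCRC1, the partner core protein of UQCRC2, read 104.2, 102.8, 104.0, 93.7 and 101.9 CPM and differed by -0.15. The low 1% O2 day 10 level was thus deeper for UQCRC2 than for UQCRC1 in this pair of libraries, a contrast that was not tested. UQCRQ differed by -0.43 and UQCRB by -0.26, and UQCRH, the hinge protein that meets cytochrome c, by -0.24, with or without the near-identical row UQCRHL. UQCR11, a small subunit, was highest of the complex at -0.06 with an interval that holds 0. CYC1 of this complex lies outside the member rule and is not in these counts and medians. It too read lower at 1% O2 day 10 than at 20% O2 day 10, as given above with cytochrome c.

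In complex IV the members split around 0: 7 were lower and 5 higher at 1% O2 day 10 (4 and 8 with library totals). Only COX5A was lower by log2 0.5 or more (25.7% of all genes were, and 54.1% were below 0). COX5A read 92.4, 82.3, 85.4, 56.3 and 73.1 CPM, lowest at 1% O2 day 10, a log2 difference of -0.60 (interval -0.75 to -0.45). COX4I1, the largest nuclear-encoded subunit, read 169.5, 150.7, 152.4, 127.2 and 145.8 CPM and differed by -0.26. COX8A differed by -0.23 and NDUFA4, a subunit first assigned to complex I, by -0.22. COX6B1, which faces cytochrome c, and COX7A2 lay near 0 at -0.03 and 0.02.

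The 3 members of the whole set whose counting interval at day 10 lay above 0 were all of complex IV; with library totals COX7A2 and the complex I genes NDUFA1 and NDUFA3 joined them. COX5B, a zinc-binding subunit of the matrix side, read 37.2, 38.9, 37.5, 47.8 and 37.9 CPM. Its 1% O2 day 10 level was the highest and the other 4 lay within 37.2 to 38.9 CPM, and the log2 difference was 0.35 (interval 0.16 to 0.54). COX6A1 read 170.1, 155.6, 164.8, 187.6 and 147.2 CPM, with a difference of 0.19 (interval 0.10 to 0.28). It too was highest at 1% O2 day 10, and lowest in the reoxygenated library. COX7C read 163.9, 136.0, 123.2, 142.6 and 133.0 CPM, with a difference of 0.21 (interval 0.11 to 0.31). Its level at 1% O2 day 10 was below that at 20% O2 day 1 and above those of the remaining libraries. The sign of the difference thus depends on which 20% O2 library it is set against.

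**Figure D3:**
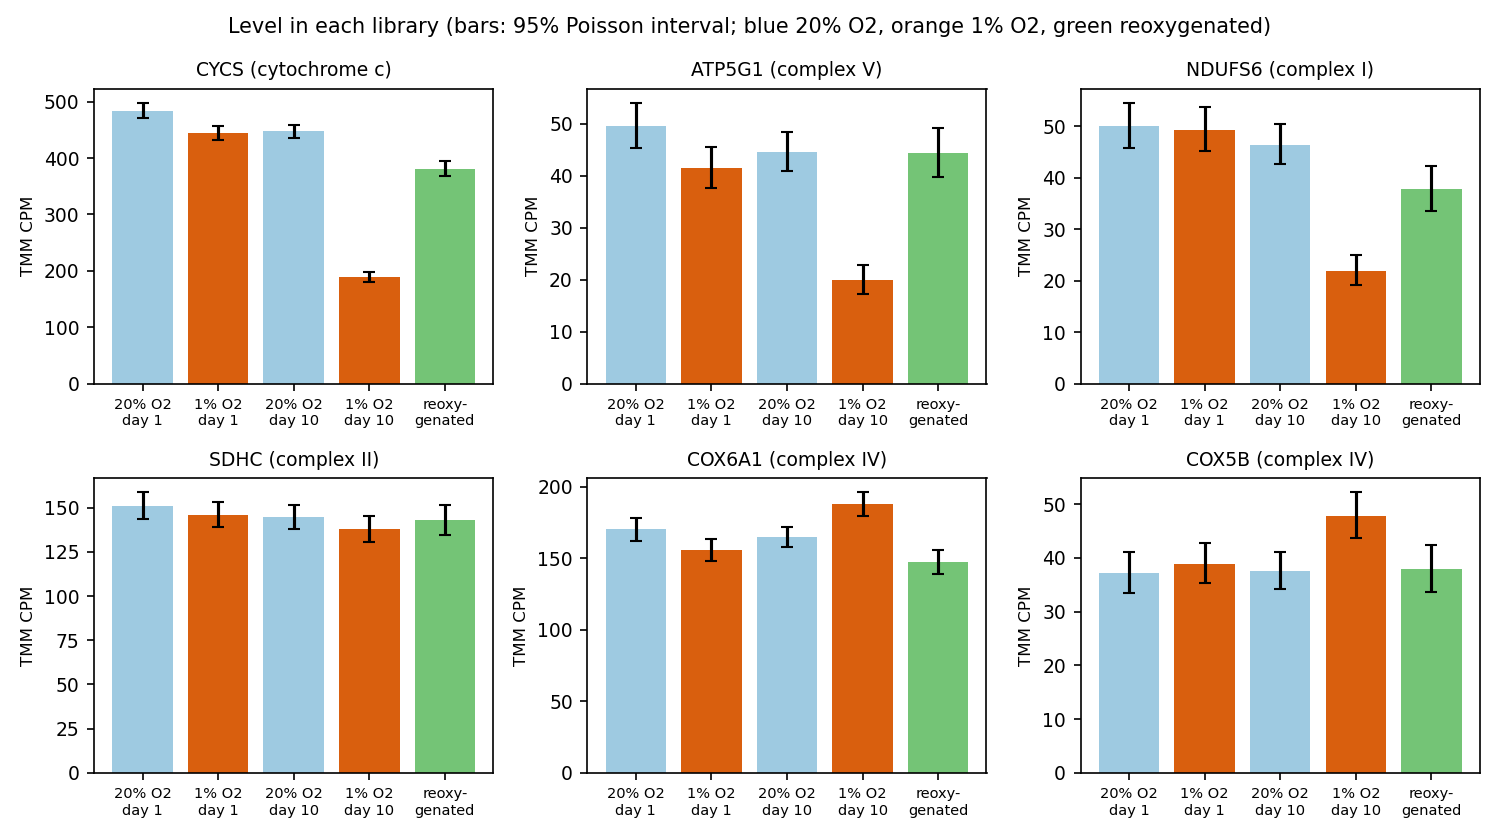
TMM CPM of 6 members in the 5 libraries, with 95% Poisson intervals, 1 library per condition; each panel starts at 0. CYCS, ATP5G1 and NDUFS6 dip at 1% O2 day 10 to 189, 19.9 and 21.9 CPM, SDHC stays between 138 and 151 CPM, and COX6A1 and COX5B peak there at 188 and 47.8 CPM.

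The isoform genes that the expression minimum removed were nearly silent in all libraries. COX4I2, the complex IV isoform known to be induced by low oxygen in other cells, had 0 counts in every library, as did COX6A2, COX7A1, COX8C and ATP5L2. A count of 0 allows up to 0.245 to 0.377 CPM in these libraries. NDUFA4L2, a known target of hypoxia-inducible factors, had 3 counts at 20% O2 day 10, 1 at 1% O2 day 10 and 0 elsewhere, and COX6B2 0, 0, 5, 9 and 4 counts. No swap of COX4I1 for COX4I2 or of NDUFA4 for NDUFA4L2 was detectable at this depth. COX7B2, a close relative of COX7B, read 18.2, 15.1, 10.1, 10.7 and 14.3 CPM, and COX7B 44.4, 40.2, 41.9, 39.3 and 41.3 CPM. Of the symbols that encode no subunit, COX7A2L, which joins complexes III and IV into supercomplexes, differed by -0.58 at day 10, ATP5SL by -0.22 and ATP5S by 0.23, the last with an interval that holds 0.

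After 1 day the differences were small and mostly below 0. Of 80 members, 70 were lower at 1% O2 than at 20% O2 (50.3% of all genes were), with a median of -0.16 against 0.00 over all genes. Counting intervals lay below 0 for 37 members and above 0 for 0 (18.1% of all genes on each side). By log2 0.5, 0 members were lower and 0 higher, beside 2.21% and 4.75% of all genes. The lowest were NDUFV2, NDUFA9 and NDUFB7, each at -0.41, and the highest was NDUFA7, an accessory subunit, at 0.15. The medians of the complexes lay close together, from -0.21 for complex V to -0.11 for complex III, with complex IV at -0.14, and each kept its sign with library totals. The difference rests on the 20% O2 day 1 library, in which the members stood highest, and its part was not tested.

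**Figure D4:**
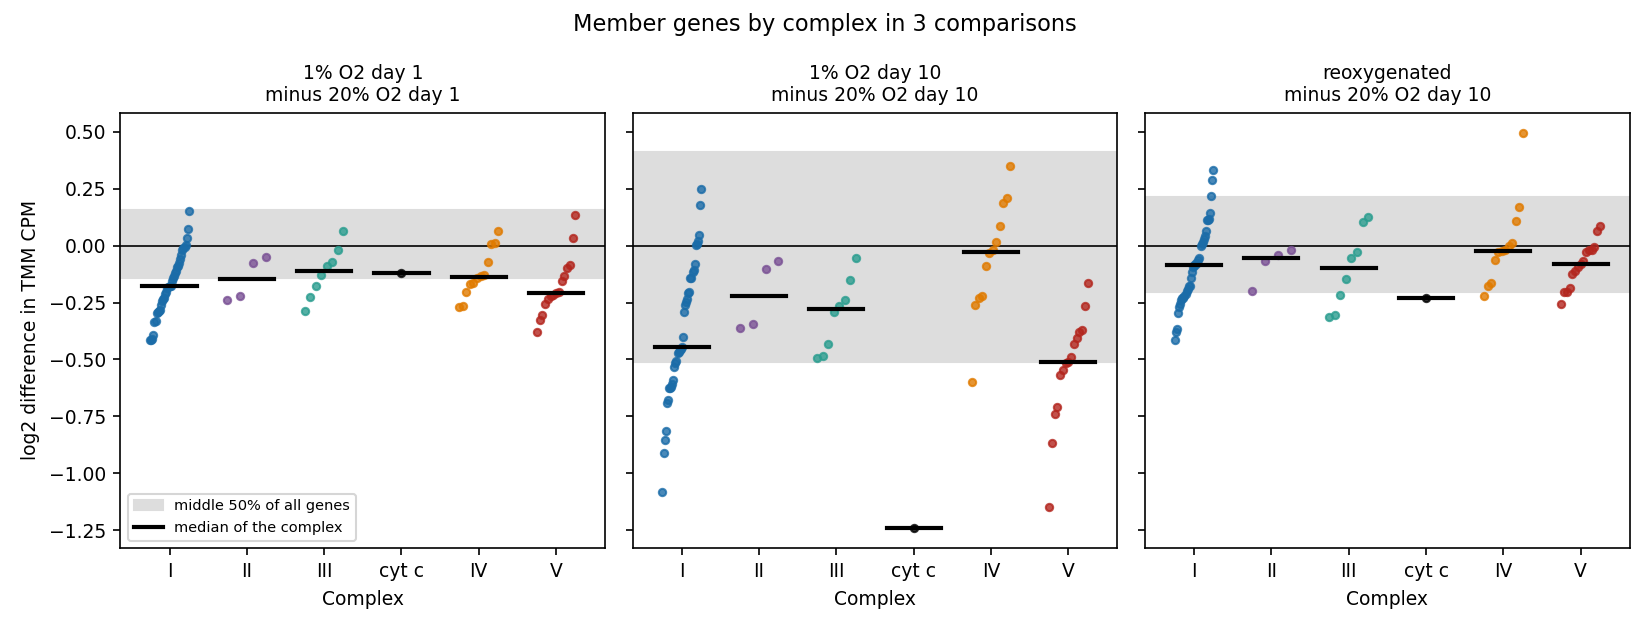
Log2 difference in TMM CPM for each member (points) by complex in 3 comparisons, with the median of each complex (bars) and the middle 50% of all genes (grey band). Complex medians lie between -0.21 and -0.11 after 1 day (cytochrome c at -0.12), spread from -0.51 to -0.03 after 10 days with cytochrome c at -1.24, and between -0.10 and -0.02 after reoxygenation with cytochrome c at -0.23; the complex IV median at day 10 turns to 0.10 with library totals.

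From day 1 to day 10 the oxygen difference itself moved lower for most members. The day 10 difference minus the day 1 difference was below 0 for 59 of 80 members (55.6% of all genes), with a median of -0.17 against -0.09, and lower by log2 0.5 or more for 11 (23.8% of all genes). All 15 members of complex V were below 0 (13 with library totals; median -0.33), while 7 of 12 in complex IV were above 0 (10 with library totals; median 0.07). Past log2 1 lay CYCS (-1.12) and NDUFS6 (-1.06), beside 6.02% of all genes. With library totals the members' median was -0.04 and that of all genes 0.04, and 45 members were below 0. Among genes that reached 50 CPM the members' median was -0.24 and that of all such genes -0.22, of which 66.5% were below 0, so that the members lay close to other genes of that abundance.

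The day 10 and day 1 libraries at 20% O2 also differed from each other. The day 10 library was below the day 1 library for 70 of 80 members (50.5% of all genes), with a median of -0.14 against 0.00, and 4 were lower by log2 0.5 or more (4.42% of all genes). Those 4 were COX7B2 (-0.84), NDUFC1 (-0.58), NDUFA9 (-0.53) and UQCRFS1 (-0.50). At 1% O2, day 10 was below day 1 for 67 members (55.6% of all genes), with a median of -0.37 against -0.09 (58 members and -0.22 with library totals), and 28 were lower by log2 0.5 or more (25.5% of all genes). These comparisons share libraries with those of oxygen: the 20% O2 day 1 library also serves the day 1 oxygen comparison. At 20% O2, time in culture and a high level in that 1 library cannot be told apart.

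The design allows 1 test, an oxygen term over the 4 libraries of day 1 and day 10 with day as a covariate (edgeR's quasi-likelihood test, Benjamini-Hochberg adjustment over 13011 genes). Its 1 residual degree of freedom is the change of the oxygen difference between the days, pooled over genes. A difference present at day 10 alone thus counts partly as error, and an absence of calls does not show that it is absent. Of 80 members 0 rose and 0 fell at an adjusted p of 0.05, where 0.899% of all genes rose and 0.0999% fell. At an unadjusted p of 0.05, 4 members were lower, which is 5% of the members beside 4.88% of all genes, and 0 higher, beside 7.36%. DESeq2 and limma-voom also called 0 members, with 1 and 4 at that unadjusted p. The 5 lowest p on the lower side belonged to ATP5G1 (estimate -0.68, SE 0.29, edgeR adjusted p = 0.314), NDUFA9 (-0.60, 0.349), CYCS (-0.66, 0.376), NDUFS3 (-0.59, 0.386) and ATP5G2 (-0.53, 0.423). The 5 lowest on the higher side were COX5B (0.22, 0.79), NDUFA3 (0.14, 0.909), COX6A1, ATP5S and NDUFA7. Estimates were below 0 for 73 of 80 members, against 50% of all genes, with a median of -0.24, and for all members of complexes II, III and V; with library totals 68 were below 0. A fit without the 1% O2 day 1 library and without the day term called 23 members, all as lower, among 4225 genes (17.0% of all genes fell), and no other setting called a member.

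In the reoxygenated library the members were close to, and mostly a little below, 20% O2 day 10. Of 80, 59 were lower (51.8% of all genes), with a median of -0.08 against -0.01, 0 were lower by log2 0.5 or more (3.85% of all genes) and 0 higher by that much (8.97%). With library totals the median was 0.00, and 41 members were lower. Among genes that reached 50 CPM the members' median was -0.079 and that of all such genes -0.072, of which 61.2% were lower, so that the members lay close to the background there too. Summed levels as a percentage of 20% O2 day 10 were 92.9% for complex I, 94.7% for complex II, 94.0% for complex III, 97.1% for complex IV, 93.1% for complex V and 85.2% for cytochrome c. ATP5G1 differed by -0.01 from 20% O2 day 10, CYCS by -0.23 and NDUFS6 by -0.30. The lowest was NDUFA6, an accessory subunit of complex I, at -0.42, and the highest COX7B2 at 0.50, just under the size rule. The reoxygenated cells had 20 days in all by the labels' account, against 10 for the control, so reoxygenation and time cannot be told apart.

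Against 1% O2 day 10, the library of the state they came from, 67 members were higher after reoxygenation (55.7% of all genes), with a median of 0.26 against 0.09. Higher by log2 0.5 or more were 16 (23% of all genes), and by log2 1 or more ATP5G1 (1.14) and CYCS (1.01) (5.34% of all genes). All 15 members of complex V were higher. Lower with an interval below 0 were 2 members, COX6A1 (-0.35) and COX5B (-0.34) of complex IV, beside 28.9% of all genes. With library totals 62 members were higher, with a median of 0.21 against 0.03 over all genes. Among genes that reached 50 CPM the members' median was 0.29 and that of all such genes 0.17, of which 37.5% were lower. This comparison shares its 1% O2 day 10 library with the day 10 oxygen comparison, so opposite signs in the pair are not separate observations.

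Genes around the chain, from lists of assembly factors, fuel enzymes and regulators, were described the same way, with the background at day 10 as above (25.7% of all genes lower and 21.6% higher by log2 0.5 or more, 4.88% lower and 7.36% higher at an unadjusted p of 0.05, 0.899% rising in edgeR's test). Of 14 complex I assembly factors, 9 were lower by log2 0.5 or more at 1% O2 day 10 and 0 higher, with a median of -0.69, and 0 passed edgeR's oxygen test. The lowest were NDUFAF1 (-1.23), ACAD9 (-1.12) and NDUFAF4 (-1.11), and the highest ECSIT (0.16), NDUFAF7 (0.07) and NDUFAF3 (-0.13). NDUFAF1 read 28.1, 25.7, 28.2, 11.9 and 21.3 CPM, lowest at 1% O2 day 10. Of 31 assembly factors of the other complexes, 15 were lower by that much and 1 higher (median -0.46). BCS1L, which inserts the Rieske protein into complex III, differed by -1.34, COA7 by -1.14 and COX18, which places a complex IV subunit in the membrane, by -1.07. COA5 (0.79), SURF1 (0.40) and UQCC2 (0.39) were the highest of that list.

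Of 19 citric acid cycle and pyruvate genes, 7 were lower and 2 higher by log2 0.5 or more (median -0.31), with FH (fumarase, -1.07), DLAT (-0.98) and CS (citrate synthase, -0.87) lowest and PC (pyruvate carboxylase, 0.87), SUCLG2 (0.65) and IDH2 (0.30) highest; these counts on so short a list are not far from the 25.7% and 21.6% of all genes. Of 17 genes for other electron entry and coenzyme Q, 9 were lower and 0 higher (median -0.52). DHODH, which feeds electrons from pyrimidine synthesis to ubiquinone, read 14.6, 7.79, 13.1, 4.70 and 8.81 CPM, a difference of -1.45, followed by COQ3 (-1.22) and COQ4 (-1.03). ETFDH (0.48), COQ6 (0.40) and COQ10A (0.24) were highest. In these 2 lists 0 genes passed edgeR's oxygen test.

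Of 15 regulators of mitochondrial biogenesis, 5 were lower and 1 higher by log2 0.5 or more (median -0.23), the lower count being near the 25.7% of all genes. GABPB1, a subunit of an ETS-type activator of these genes, read 54.1, 49.6, 46.7, 14.3 and 36.7 CPM (-1.69), and TFAM, the packaging and transcription factor of mitochondrial DNA, 225, 242, 235, 115 and 191 CPM (-1.02). Both were lowest at 1% O2 day 10, as was TFB2M (-1.10). The coactivator PPARGC1A was higher (4.72, 5.10, 4.24, 16.8 and 9.69 CPM, 1.94), followed by TFB1M (0.34) and POLG (0.17). None of the 15 passed the edgeR test, and 1 was higher and 2 lower at an unadjusted p of 0.05 (7.36% and 4.88% of all genes). Of 14 hypoxia-responsive regulators, not all of them mitochondrial, 5 were higher and 1 lower by log2 0.5 or more at day 10 (median 0.09). In that test 4 rose (0.899% of all genes): BNIP3 and BNIP3L, receptors for the removal of mitochondria, MXI1 and PFKFB4. The list was drawn up for a response to low oxygen, so a share above that of all genes is no separate result. MXI1, a repressor that competes with MYC, read 11.2, 24.9, 16.2, 108 and 13.0 CPM (edgeR adjusted p = 0.000707). LONP1, the protease known to degrade COX4I1, differed by -0.01 at day 10. The lowest of that list were HIGD1A (-0.998), CHCHD4 (-0.42) and ISCU (-0.35), and the highest MXI1 (2.72), PFKFB4 (1.81) and BNIP3L (1.67).

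**Figure D5:**
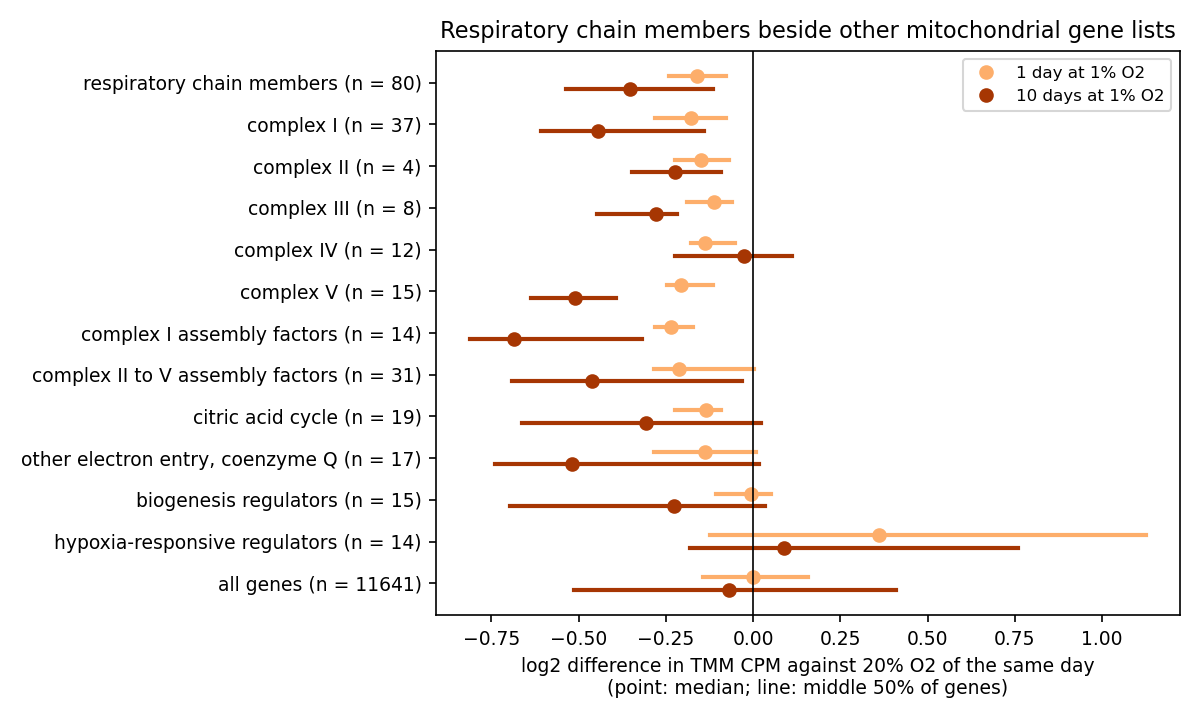
Median log2 difference in TMM CPM (points) and the middle 50% of genes (lines) against 20% O2 of the same day. Values are after 1 day (light) and 10 days (dark) at 1% O2, for the members, each complex and other gene lists. At day 10 the medians run from -0.69 for complex I assembly factors to 0.09 for the hypoxia-responsive regulators, with complex IV at -0.03 (0.10 with library totals) and all genes at -0.07.

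Promoters of 67 of the 80 members were among the RefSeq windows of 300 bases, 250 before and 50 after each start, and motifs were searched on both strands. The full NRF1-type site, which is GCATGCGC preceded by GC, was in 5.97% of member promoters, in 1.75% of all 15842 promoters of protein-coding genes and in 2.46% of the 9285 of genes at the expression minimum. Its inner letters GCATGCGC, a search added after the 4 sequences above were read, were in 14 members (20.9%) and in 4.26% and 5.77% of the others. CYCS, NDUFS6 and COX5B, in which the letters had been seen, are among the 14. The share of members is thus partly fixed in advance. The looser NRF1-type site, GCGC and GCGC with any 2 bases between, which contains the full site, was in 23.9% against 12.0% and 16.8%. CCGGAAG was in 28.4% against 14.2% and 20.6%, and its longer form CCGGAAGT in 13.4% against 6.19% and 9.59%. The hypoxia response cores were at shares near those of the other promoters. ACGTG was in 26.9% against 23.7% and 27.5%, GCGTG in 46.3% against 44.1% and 51.8%, and the E-box CACGTG, which holds ACGTG, in 10.4% against 8.88% and 10.4%. Of 11 complex IV promoters 0 held the looser NRF1-type site and 5 held CCGGAAG, and of 11 in complex V 3 and 4. Members with GCATGCGC had a median difference at day 10 of -0.37 and those without it -0.40. A match is a run of letters and not a shown site of binding.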

How the data were processed

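RNA was measured in 5 libraries of MDA-MB-231 cells made with an mRNA kit, per the labels' protocols. The authors deposited expected counts for each gene symbol. Bowtie2 2.1.0, RSEM 1.2.15, edgeR and hg38 are named in the submitters' processing notes, while annotation and strand setting were not given in the sources used here. A deposited table of normalized signal on a CPM scale served only as an alternative, as log2(value + 1). Divided by the smallest value above 0 of the same column, 99.96% of its values equal the rounded counts within 0.01 reads plus 0.1% of the count. It thus holds nearly the same counts under another scale for each library. Of the columns, 0 were left unused.

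Expected counts were rounded. TMM factors (edgeR 4.0.16, R 4.3.3) came from the 13940 genes that reached 1 CPM in any library, and log2 CPM used a prior count of 2. Pairs of libraries were compared by log2 difference with 95% intervals of the count ratio (exact Clopper-Pearson). These cover counting error only, since reads carried no molecular identifiers. The oxygen term was fitted with edgeR on the 13011 genes that reached 1 CPM in 2 or more of 4 libraries, with 1 residual and 29.8 prior degrees of freedom, threshold 0.05. DESeq2 1.42.0, limma 3.58.1, other scalings, minima and row choices, and leaving out each library were alternatives. RSEM shares reads between near-identical and overlapping rows. Sums per length were planned but not run, because no reliable transcript length was at hand for every member.

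Members, complexes and gene lists were chosen with earlier results of these data known. Text names the 3 lowest and 3 highest members per complex at day 10, members past log2 1, the 5 lowest p per direction, a panel of core subunits and isoforms, and up to 3 genes at each end of a list; COX7B and other members were added to complete a description. A gene of the panel is counted in the sets but is not reported here by itself. Symbols are older ones as deposited (ATP5A1 is now ATP5F1A); 80 of 80 matched RefSeq, for names and promoters. Promoter stretches were checked against GENCODE 29 exons.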

Additional observations from a re-analysis of the deposited data

Results flagged for a closer look

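The oxygen difference of COX6A1 and COX7C had opposite signs on day 1 and day 10, each with a counting interval clear of 0. For COX6A1 the log2 difference was -0.13 on day 1 and 0.19 on day 10, so that the day 10 difference minus the day 1 difference was 0.32. For COX7C it was -0.27 on day 1 and 0.21 on day 10, a gap of 0.48. From day 1 to day 10 COX7C changed by 0.07 at 1% O2, with an interval that holds 0, and by -0.41 at 20% O2. Its gap thus lay mostly between the 20% O2 libraries. COX6A1 changed by 0.27 at 1% O2 and by -0.05 at 20% O2, the latter with an interval that holds 0. The share of all genes with such a change of sign was not counted. Each condition had 1 library, and the difference between days was not tested.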

How the results depend on the processing

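No paired analysis was possible because each condition had 1 library and shared no replicate number with another. Differences between pairs rest on 1 library a side, so counting intervals are too narrow as errors of a condition. With library totals, the median log2 difference of members was -0.23 at day 10 (12 lower by log2 0.5 or more), -0.22 with time at 1% O2 (15 lower) and -0.041 for day 10 minus day 1 (7 lower). With a minimum of 50 CPM, 2 members were lower by that much with time at 20% O2. The members' median with time at 1% O2 was then -0.47 against -0.23 for all such genes, of which 64.9% were below 0. Relative to all genes that median was -0.23, and -0.28 in the main setting. With a minimum of 1 CPM, 1 member was lower by that much after reoxygenation. The oxygen test called 130 genes in all (117 rose, 13 fell), and 49 with DESeq2, 224 with limma-voom, 0 without the day term, 81 with DESeq2 size factors in edgeR, 27 with library totals, 281 with no filter and 29 with a minimum of 5 CPM. Leaving out 1 library and the day term gave 0 to 4225 genes in all, 0 to 23 members and a member median of -0.40 to -0.087; without 20% O2 day 1 that median was -0.099, and without 1% O2 day 10 it was -0.087 with 22 genes called. The fit with 4225 genes and 23 members was the one without the 1% O2 day 1 library, in which the lone low-oxygen sample is assumed to vary like the other group. Of the 25 members lower by log2 0.5 or more at day 10, 13 were nearer to 0 than that with library totals and 4 with DESeq2 size factors; the cause was not tested. The complex IV median at day 10 changed sign with library totals (0.10). The all-gene median at day 10 also did so there (0.06) and with a minimum of 1 CPM (0.01). Members near 0 changed sign under several settings: at day 10, 68 were below 0, but 59 with library totals, 67 with DESeq2 size factors and 72 in the authors' normalized table, and for day 10 minus day 1 59, 45, 53 and 59. Among genes that reached 50 CPM the members' median relative to all genes shrank to -0.018 for day 10 minus day 1 and to -0.0077 for reoxygenated against 20% O2 day 10.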
